A study of Mus musculus with 24 samples.

Results

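Macrophages lacking a cis-regulatory element of Hdac9 (dCIS) were compared with wild-type (WT) macrophages after both had been exposed to lipopolysaccharide (LPS). The comparison holds 8 of the 24 libraries of the series, 4 libraries labelled dCIS LPS and 4 labelled WT LPS, and was made over all expressed genes of the deposited count table. The members are the libraries whose column names carry these genotype and treatment labels, with replicate numbers 1 to 4 in each group. In both groups bone marrow cells had been differentiated with L929-conditioned medium (15%), replated on day 7, rested for 24 hours without that medium, and stimulated in serum-free medium with 100 ng/ml LPS for 6 hours. The only labelled difference is the genotype, written HDAC9 deltaCIS in the labels. Untreated dCIS and WT libraries, and LPS-treated Hdac9 knockout (KO) libraries, 4 of each, are used for reference. The position of the deleted element and the mouse strain were not given in the sources used here. The labels also do not say whether libraries with the same label stem from different mice or cultures, so p-values measure only the spread between libraries, which may be technical.

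LPS is a bacterial cell wall component that macrophages sense through the receptor TLR4 with its partners CD14 and MD-2. TLR4 signals through the adaptors MyD88 and TRIF, which switch on NF-kB target genes such as Tnf, Il6 and Il1b, and the interferon-beta genes, respectively. HDAC9 is a class IIa histone deacetylase that binds MEF2 transcription factors and brings corepressor complexes to their target genes. In macrophages it has been linked to cholesterol efflux and to inflammatory gene expression.

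The cells carried the markers of macrophages. All 10 macrophage markers (among them Adgre1, Csf1r and Cd68) had counts, with a summed level of 24290 to 27445 CPM (counts scaled to the library size) in WT LPS and 19785 to 25708 CPM in dCIS LPS. The library sizes behind all CPM values were scaled by the TMM method, which corrects for differences in library composition. The 5 erythroid markers were at 0 in all 8 libraries, and the 6 fibroblast markers summed to at most 0.732 CPM. Neutrophil markers summed to 3.18 to 4.31 CPM in WT LPS and 2.71 to 4.41 CPM in dCIS LPS, with Ly6g at 0 in all 8. Over all 8 libraries, osteoclast markers summed to 37.0 to 63.3 CPM, endothelial markers to 40.3 to 60.0 CPM and megakaryocyte markers to 465 to 643 CPM, with Calcr and Gp9 at 0. The megakaryocyte sum rests on Pf4 and Ppbp, the only 2 of the 4 markers with enough counts to be tested. T and NK cell markers summed to 1.90 to 8.46 CPM and B cell markers to 3.44 to 15.1 CPM. Dendritic cell markers summed to 4.54 to 5.97 CPM, and mast cell and basophil markers to 0.327 to 1.46 CPM. In each of these lists the ranges of the groups overlapped. In bulk RNA, fewer cells of a type and less RNA per cell cannot be told apart.

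Libraries 3 and 4 of dCIS LPS stood apart in how many genes they detected. At least 1 count was found for 20599, 20660, 17628 and 15997 genes in dCIS LPS libraries 1 to 4, against 20666, 20549, 20458 and 20828 genes in WT LPS. Libraries 1 and 2 lay inside the WT LPS range, while libraries 3 and 4 lay below all others. The total counts did not follow this order: library 3 held 16651501 counts, the most of its group, library 4 held 14813435, and the WT LPS libraries held 16328738 to 16712666. After all libraries were thinned to 14636058 counts, libraries 3 and 4 still showed 17520 and 15993 genes, against 20104 or more in each of the other 6. The mean difference between the groups was -1904 genes, with an exact two-sided permutation p of 0.229 over 4 and 4 libraries, where the smallest p the design allows is 0.0286.

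The missing genes were those of low level. Genes with exactly 1 count numbered 3083 and 3014 in dCIS LPS libraries 1 and 2, but 806 and 552 in libraries 3 and 4, against 2894 to 3156 in WT LPS. Genes were sorted by their mean count in the KO LPS libraries, which are in neither group compared. Among genes with a mean above 1 and up to 3 counts, libraries 3 and 4 detected 44.6% and 29.2%, while the other 6 libraries detected 71.1% to 73.9%. Among genes with a mean above 10 and up to 30 counts the shares were 98.3% and 93.8%, against 99.7% to 99.9%. Above 100 counts every gene was detected in all 8 libraries. The number of genes with at least 10 counts was not lower in these libraries, at 12960 and 12702, against 12534 to 12706 in WT LPS and 12558 and 12553 in dCIS LPS libraries 1 and 2. Libraries 3 and 4 also differed by base composition: among genes with a mean of at least 5 CPM in WT LPS, the 2169 with the lowest GC content had a median log2 difference from the WT LPS mean of -0.18 and -0.15 in libraries 3 and 4, and the 2169 with the highest GC content one of 0.06 and 0.03. In library 1 these medians were 0.01 and 0.02, and in library 2 they were 0.11 and -0.01. Shifts of like size but opposite direction were seen in KO LPS. There the medians ran from 0.09 to 0.16 for the lowest GC content and from -0.13 to -0.01 for the highest. The main results are therefore also given with libraries 3 and 4 left out, or with libraries 1 and 2 left out.

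**Figure D1:**
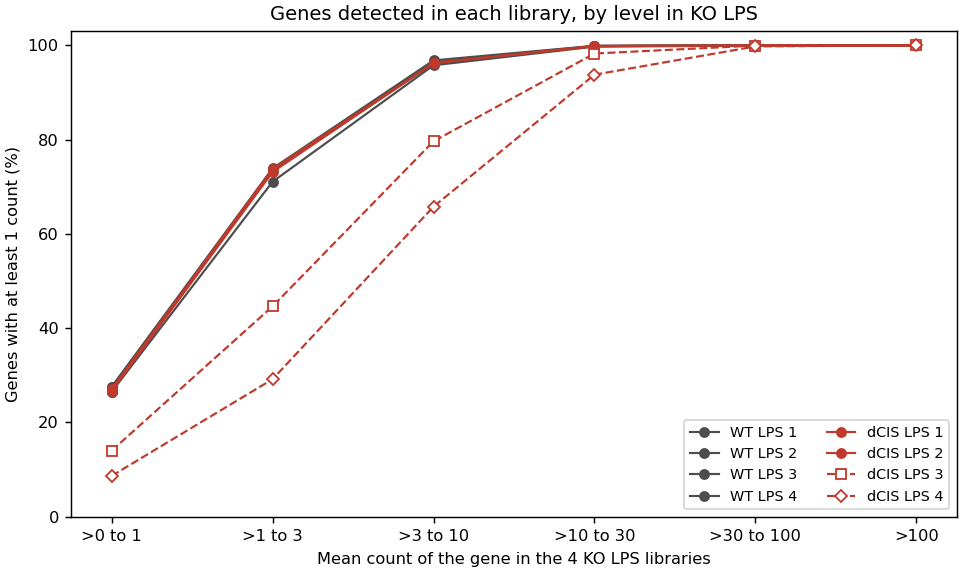
Share of genes with at least 1 count in each LPS-treated WT and dCIS library (y axis, percent), for genes grouped by their mean count in the 4 KO LPS libraries (x axis). Open symbols and dashed lines mark dCIS LPS libraries 3 and 4, which fall to 44.6% and 29.2% for genes with a mean above 1 and up to 3 counts, where the other 6 libraries stay between 71.1% and 73.9%.

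Hdac9 itself kept its transcript in the deletion. Its level was 11.4, 16.5, 10.4 and 11.0 CPM in WT LPS libraries 1 to 4 and 16.5, 21.2, 9.89 and 11.0 CPM in dCIS LPS libraries 1 to 4. The groups overlapped: dCIS LPS libraries 1 and 2 were at or above the highest WT LPS library, and libraries 3 and 4 sat at the level of the lower WT LPS libraries. The log2 fold change of dCIS LPS over WT LPS was 0.25 (SE 0.204), with an edgeR adjusted p of 0.647 and an exact two-sided permutation p of 0.629. It was 0.61 with libraries 3 and 4 left out and -0.24 with libraries 1 and 2 left out, with edgeR adjusted p of 0.351 and 0.511. In the KO LPS libraries Hdac9 was at 0.302 ± 0.155 CPM (SD, n = 4). Untreated, the 4 dCIS libraries (15.6 ± 2.23 CPM) all lay above the 4 WT libraries (11.2 ± 1.46 CPM), with a log2 fold change of 0.47 and an edgeR adjusted p of 1. Of the 20 genes that flank Hdac9 in RefSeq gene order, 10 on each side, 2 had enough counts to be tested and 0 were called. They were Twistnb (log2 fold change -0.32, edgeR adjusted p 0.280) and the gene model Gm18025 (log2 1.15, adjusted p 0.321).

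After LPS, few genes separated the deletion from wild type. The edgeR quasi-likelihood test, with Benjamini-Hochberg adjustment over 14757 genes, called 38 genes (0.258%) at an adjusted p under 0.05. Of these, 17 (0.115%) were higher and 21 (0.142%) lower in dCIS LPS, and 1933 genes (13.1%) had an unadjusted p under 0.05. The genes that rose include the oxysterol receptor gene Nr1h3, the transcriptional regulator Mier3, the lysosomal membrane protein gene Gpr137b and the small GTPase regulators Plekhg2, Arhgap27 and Arhgap4. The genes that fell include the arginine transporter gene Slc7a2, 3 mitochondrial transfer RNA genes and Cox6c, Mpc1 and Maoa, nuclear genes of mitochondrial proteins. Of the 38, 18 differed by less than 2-fold, and the smallest change was 0.44 on the log2 scale. In all 38 the 4 and 4 libraries did not overlap, which held for 6.86% of all tested genes; the calls were made on these same 8 libraries, so the separation is not independent of them. Of the 38, 10 were gene models known only by a number, clone or pseudogene name.

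The calls rested unevenly on the 4 deletion libraries. With libraries 3 and 4 left out 6 genes were called (0.0407% of those tested), and with libraries 1 and 2 left out 1019 were called (6.91%), 351 higher and 668 lower. Of the 38 genes, 5 were also called with libraries 1 and 2 alone and 37 with libraries 3 and 4 alone. In 30 of the 38 the change was larger in the fit with libraries 3 and 4. DESeq2 called 218 genes (1.48%), among them 33 of the 38, with no adjusted p for the other 5. When libraries were weighted by their quality in limma, 79 genes were called (0.535%), among them 26 of the 38. The weights given to dCIS LPS libraries 1 to 4 were 2.26, 0.927, 0.290 and 0.245, where a higher weight means that a library lies closer to its group's fitted levels. Leaving out a single library gave 199 calls without dCIS LPS library 1, 19 without dCIS LPS library 3, and 18 without WT LPS library 2 or 3. The part that low detection plays in these counts was not tested.

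**Figure D2:**
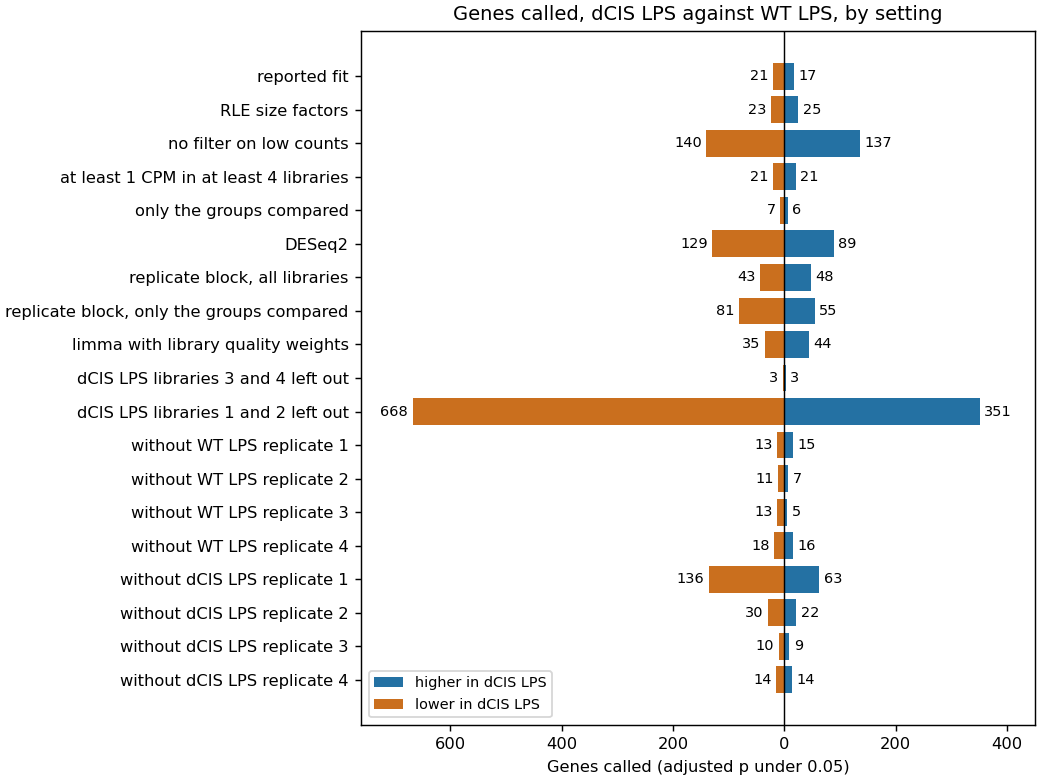
Number of genes called higher (blue, to the right) or lower (orange, to the left) in dCIS LPS than in WT LPS at an adjusted p under 0.05, for the reported edgeR fit and each alternative. The count falls from 17 higher and 21 lower to 3 and 3 with dCIS LPS libraries 3 and 4 left out, and reaches 351 and 668 with libraries 1 and 2 left out.

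A set of 5 genes was called in each fit that left out 1 of the 8 libraries and also without libraries 3 and 4. The 4 described here are Mier3, Nr1h3 and Gpr137b, which rose, and Gm15446, which fell. Mier3 encodes a member of the MIER family of corepressor subunits. Its level was 70.9, 63.8, 62.3 and 67.3 CPM in WT LPS and 149, 177, 122 and 139 CPM in dCIS LPS. Every deletion library held more than any wild-type library by a wide margin, libraries 3 and 4 included. The log2 fold change was 1.15 (SE 0.103), the smallest adjusted p of the comparison at 4.10e-07 (edgeR), and 1.30 without libraries 3 and 4. Mier3 is induced by LPS in WT cells (log2 3.04), and untreated cells of both genotypes held little of it, 8.04 ± 0.251 CPM in WT and 9.68 ± 0.910 CPM in dCIS (SD, n = 4).

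Nr1h3 encodes LXR-alpha, the nuclear receptor that senses oxysterols and turns on cholesterol efflux genes. It was at 54.4, 51.8, 69.1 and 65.9 CPM in WT LPS and at 172, 159, 137 and 104 CPM in dCIS LPS. The groups did not overlap, and libraries 3 and 4 were the lowest of the deletion group. The log2 fold change was 1.25 (SE 0.199, edgeR adjusted p 0.00281), and 1.46 without libraries 3 and 4. Untreated cells differed by a like amount, 31.7 ± 6.37 CPM in WT against 63.5 ± 18.7 CPM in dCIS, where the test just missed the threshold (log2 1.00, edgeR adjusted p 0.0519).

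Gpr137b, which encodes a lysosomal membrane protein, was at 41.7, 30.1, 35.7 and 33.3 CPM in WT LPS and at 88.7, 83.7, 51.7 and 52.0 CPM in dCIS LPS. All deletion libraries were higher, but libraries 3 and 4 were closer to wild type than libraries 1 and 2. The log2 fold change was 0.97 (SE 0.151, edgeR adjusted p 0.00220), 1.29 with libraries 3 and 4 left out and 0.56 with libraries 1 and 2 left out. In KO LPS, Gpr137b was at 57.2 to 80.8 CPM, below libraries 1 and 2 of the deletion and above its libraries 3 and 4.

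The gene model Gm15446, named here after its values were seen, had 42 counts over the 4 WT LPS libraries and 0 over the 4 dCIS LPS libraries. Set against an assumed floor of 3 counts over the deletion group, it was at least 14.0-fold lower (edgeR adjusted p 1.19e-04). In untreated cells it had 214 counts over WT and 4 over dCIS. Gm16867, also named after its values were seen, is not among the genes called in every one of these fits. It had 63 counts over WT LPS and 0 over dCIS LPS, at least 21.1-fold lower by the same assumed floor (edgeR adjusted p 0.00182). Untreated, it had 28 counts over WT and 1 over dCIS. Since dCIS LPS libraries 3 and 4 detected fewer genes of low level, a count of 0 there cannot be read as absence.

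**Figure D3:**
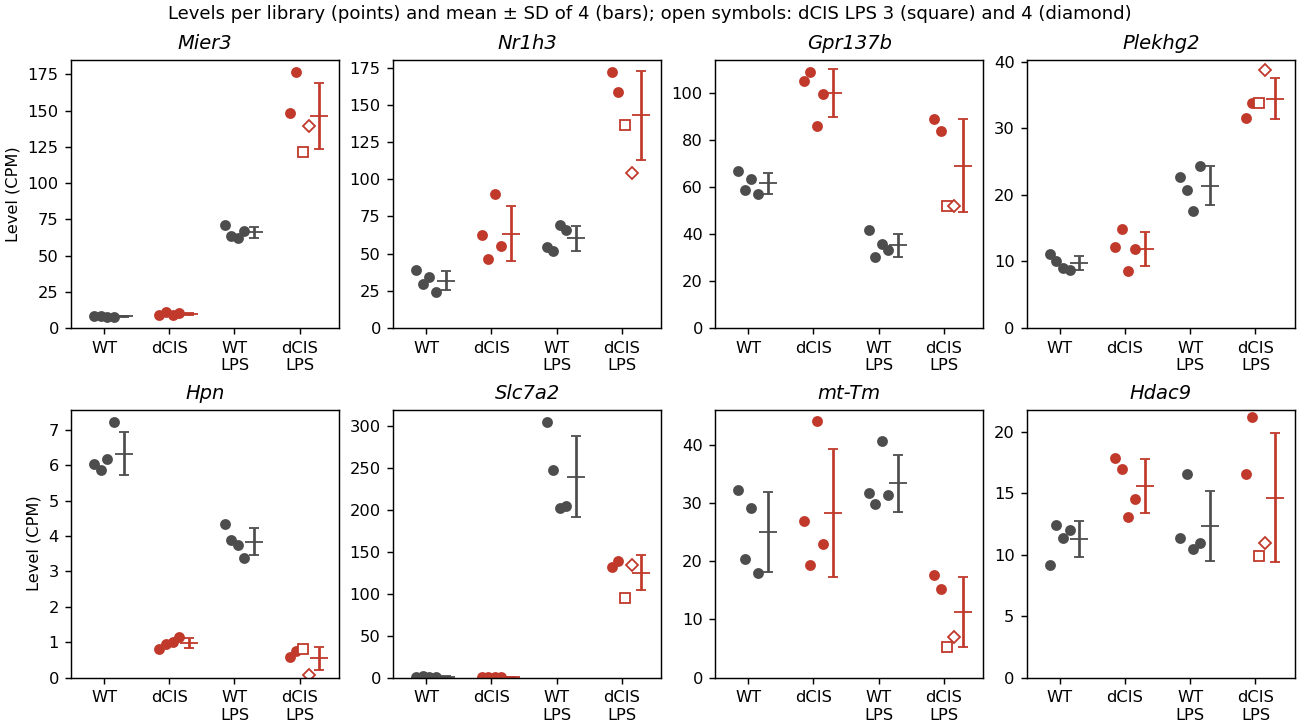
Levels of 8 genes in CPM (y axis) in each library of the WT, dCIS, WT LPS and dCIS LPS groups (points), with the mean and SD of 4 libraries as a cross bar and vertical line. Open squares and diamonds are dCIS LPS libraries 3 and 4. Mier3, Nr1h3, Gpr137b and Plekhg2 are higher and Hpn, Slc7a2 and mt-Tm lower in every dCIS LPS library than in every WT LPS library, while Hdac9 overlaps.

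Hpn, the gene of the membrane serine protease hepsin, was named after its values were seen. It fell from 3.84 ± 0.386 CPM in WT LPS to 0.549 ± 0.327 CPM in dCIS LPS (log2 -2.78, edgeR adjusted p 0.00436). Without libraries 3 and 4 the adjusted p of Hpn was 0.162, at a log2 fold change of -2.54. In the gene order of RefSeq (GRCm38), Gm15446 on chromosome 5 is the direct neighbour of the zinc finger gene Zfp932, which was also called lower (0.602 ± 0.287 CPM in WT LPS and 0.0589 ± 0.0771 CPM in dCIS LPS). Etv1, an ETS family transcription factor on chromosome 12 with 50 RefSeq genes between it and Hdac9, was at 4.74 ± 0.536 CPM in WT LPS and 2.19 ± 0.938 CPM in dCIS LPS. That difference missed the threshold (log2 -1.11, edgeR adjusted p 0.0891), while the one in untreated cells passed it (log2 -1.46, adjusted p 0.0112).

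The 10 other named rises are given here in an order by known role that was made after their values were seen, and no group among them was tested. Plekhg2, a guanine nucleotide exchange factor for small GTPases, was at 22.7, 20.8, 17.6 and 24.4 CPM in WT LPS and at 31.5, 33.9, 33.8 and 38.8 CPM in dCIS LPS. The groups were separate and the deletion libraries close to each other (log2 0.69, SE 0.133, edgeR adjusted p 0.0169). Arhgap27 and Arhgap4, which encode GTPase-activating proteins, rose by 0.64 and 0.62 on the log2 scale. Rasgrp4, a Ras exchange factor, rose from 2.47 ± 0.434 to 5.35 ± 2.05 CPM, a log2 fold change of 1.12. Fmnl1, a formin that elongates actin filaments, rose by 0.53, and the septin gene Sept9 by 0.59. Dgkz, a diacylglycerol kinase, rose by 0.44, from 65.2 ± 4.11 to 88.6 ± 4.47 CPM (edgeR adjusted p 0.0169).

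The remaining rises were Snx24, a sorting nexin (log2 0.82), Abca2, a lipid transporter of endolysosomes (log2 0.62), and Midn, which encodes the proteasome-linked protein midnolin (log2 0.53). For 9 of these 10 genes the change was larger with libraries 3 and 4 than with libraries 1 and 2. Sept9 was 0.75 against 0.41 on the log2 scale, Arhgap4 0.80 against 0.43, and Midn 0.74 against 0.29. Plekhg2 (0.76 against 0.61), Dgkz (0.48 against 0.41), Fmnl1 (0.55 against 0.51) and Snx24 (0.76 against 0.88) differed less. In the fit with libraries 1 and 2 alone none of the 10 was called by edgeR, with adjusted p from 0.154 for Snx24 to 0.415 for Midn. Sept9 stayed called whichever single library was left out (adjusted p up to 0.0474). Each of the other 9 lost its call without WT LPS library 3, and with at least 1 other library left out, the highest adjusted p being 0.202 for Arhgap27, 0.174 for Midn, 0.151 for Fmnl1, 0.123 for Rasgrp4, 0.110 for Snx24, Plekhg2, Abca2 and Dgkz, and 0.0825 for Arhgap4.

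Among the falls were 3 transfer RNA genes of the mitochondrial genome, of 10 tested: mt-Tm (methionine), mt-Ti (isoleucine) and mt-Ta (alanine). Mitochondrial tRNAs carry amino acids to the mitochondrial ribosome and are cut out of long polycistronic transcripts. The sequences of the 3 called genes, from GENCODE M21 (GRCm38, mitochondrial chromosome), are shown 5′ to 3′ because they identify which tRNA genes were called lower. They are given as DNA, with the anticodon in capitals.
mt-Tm: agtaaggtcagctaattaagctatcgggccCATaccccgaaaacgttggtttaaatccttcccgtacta
mt-Ti: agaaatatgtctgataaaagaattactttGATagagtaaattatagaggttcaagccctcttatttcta
mt-Ta: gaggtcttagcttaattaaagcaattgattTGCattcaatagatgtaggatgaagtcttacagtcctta

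Each of these genes is 69 bases long. mt-Tm and mt-Ti lie on the forward strand and mt-Ta on the reverse strand. The level of mt-Tm was 31.7, 29.8, 40.7 and 31.4 CPM in WT LPS and 17.6, 15.3, 5.27 and 6.95 CPM in dCIS LPS. All deletion libraries were lower, and libraries 3 and 4 lowest. mt-Tm fell by 1.57 on the log2 scale (SE 0.282, edgeR adjusted p 0.00907), and its log2 fold change was -1.02 without libraries 3 and 4 and -2.45 without libraries 1 and 2. mt-Ti fell from 11.5 ± 1.55 to 5.49 ± 1.96 CPM (log2 -1.07, edgeR adjusted p 0.0217). The low-level mt-Ta, at 1.30 ± 0.442 CPM in WT LPS, had no count in dCIS LPS libraries 3 and 4 (log2 -3.15, edgeR adjusted p 0.0398). Both mt-Ti and mt-Ta lost their calls without WT LPS library 2 or dCIS LPS library 3, and over all such fits their adjusted p reached 0.110 and 0.124.

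The 10 tested tRNAs, a group chosen after its values were seen, all had a log2 fold change below 0, with a median of -1.03. With libraries 1 and 2 alone 0 of the 10 were called. With libraries 3 and 4 alone 6 were called lower, where 4.53% of all tested genes were. The medians were -0.86 and -2.09. When only the groups compared were fitted, 0 of the 10 were called, and 13 genes in all. Their summed level was 58.4, 58.6, 70.5 and 59.4 CPM in WT LPS and 35.7, 33.0, 11.1 and 19.5 CPM in dCIS LPS. Libraries 1 and 2 therefore also lay below wild type, though less far than libraries 3 and 4. Of the 11 tested protein-coding genes of the mitochondrial genome, 0 were called by edgeR, DESeq2 or limma, and the median was -0.09. Of the 11, 1 had an unadjusted edgeR p under 0.05, where 13.1% of all tested genes did. With no filter on low counts, or with libraries 3 and 4 alone, edgeR called 1 of the 11 higher and 1 lower. Over all genes it called 137 higher and 140 lower with no filter, and 351 and 668 with libraries 3 and 4 alone. These tRNA genes are short and their transcripts overlap longer mitochondrial transcripts, so the counts depend on how the authors assigned reads. The libraries were made from polyadenylated RNA, and the strand setting of the counting was not given. Whether the reads stem from mature tRNAs or from longer transcripts therefore cannot be told.

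**Figure D4:**
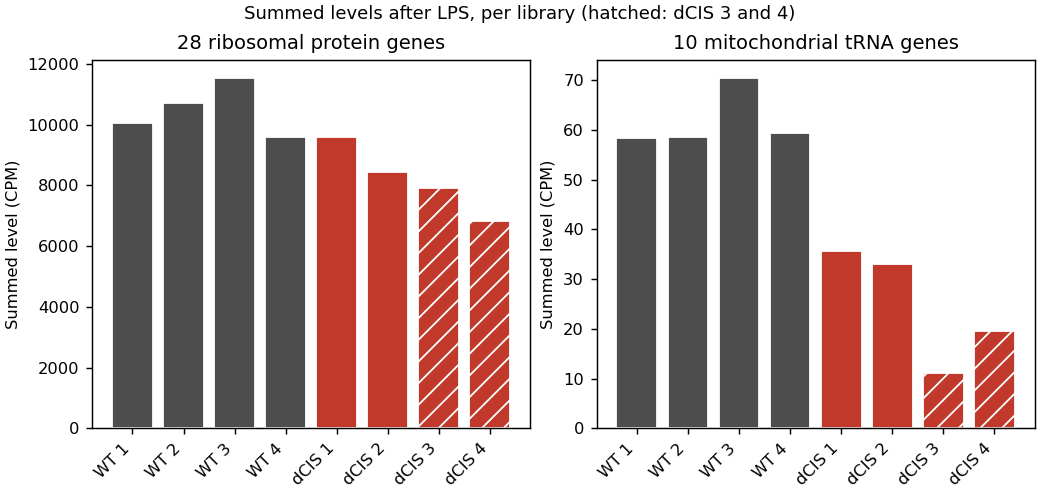
Summed level in CPM (y axis, from 0) of 28 cytosolic ribosomal protein genes (left) and 10 mitochondrial tRNA genes (right) in each WT LPS and dCIS LPS library; hatched bars are dCIS LPS libraries 3 and 4. The tRNA sum is 58.4 to 70.5 CPM in WT LPS and 11.1 to 35.7 CPM in dCIS LPS; the ribosomal protein sum is 9608 to 11549 CPM in WT LPS and 6836 to 9580 CPM in dCIS LPS.

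Among the falls were also 4 nuclear genes whose products work in mitochondria, Cox6c, Mpc1, Maoa and AA467197. They were put together after their values were seen and were not tested as a group. Cox6c, a subunit of cytochrome c oxidase, was at 85.7, 90.8, 98.7 and 73.5 CPM in WT LPS and at 67.9, 63.9, 44.5 and 46.4 CPM in dCIS LPS. The groups did not overlap, but library 1 of the deletion came close to the lowest wild-type library. Cox6c fell by 0.65 on the log2 scale (SE 0.141, edgeR adjusted p 0.0421). Mpc1, a subunit of the mitochondrial pyruvate carrier, fell by 0.55, from 34.5 ± 2.84 to 23.6 ± 2.87 CPM. Maoa, the outer-membrane enzyme that oxidises monoamines, fell by 0.98, from 5.92 ± 0.441 to 2.98 ± 0.900 CPM. AA467197, which encodes the LPS-induced mitochondrial protein NMES1 and is named after its values were seen, was at 156 ± 13.7 CPM in WT LPS and 91.6 ± 21.4 CPM in dCIS LPS (log2 -0.77, edgeR adjusted p 0.00907). Hdhd2, a hydrolase-family gene outside this grouping, fell by 0.65, from 20.8 ± 0.569 to 13.3 ± 2.79 CPM.

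These 5 genes were not called with libraries 1 and 2 alone, where their log2 fold changes ran from -0.79 for Maoa to -0.40 for Cox6c and Mpc1 (edgeR adjusted p 0.260 to 0.405). Without dCIS LPS library 3 each of the 5 lost its call, with adjusted p up to 0.205 for Cox6c over the libraries left out one at a time. Among 18 tested nuclear genes of oxidative phosphorylation, Cox6c was the only one called lower and 0 were called higher, where 0.142% of all tested genes were called lower. DESeq2 called 2 of the 18 lower, while limma with quality weights and edgeR on only the groups compared called 0. The list's median was -0.11, with 16 of 18 below 0, where the median over all tested genes was -0.01.

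Slc7a2, the cationic amino acid transporter CAT2 that brings arginine into activated macrophages, fell. It was at 304, 248, 202 and 204 CPM in WT LPS and at 132, 139, 94.4 and 134 CPM in dCIS LPS. The deletion libraries all lay below the lowest wild-type library, and library 3 was the lowest. Slc7a2 fell by 0.94 on the log2 scale (SE 0.144, edgeR adjusted p 0.00209) and stayed called whichever single library was left out. Without libraries 3 and 4 its log2 fold change was -0.82 (edgeR adjusted p 0.0928). It was the only called gene among the 8 tested of nitric oxide, arginine and itaconate metabolism. Nos2, the inducible nitric oxide synthase that uses arginine, was at 2204, 2024, 1720 and 2050 CPM in WT LPS and at 2715, 3043, 2489 and 2728 CPM in dCIS LPS. Each deletion library was above each wild-type library, yet the test did not call the difference (log2 0.46, SE 0.350, edgeR adjusted p 0.614). The call depended on the setting. Nos2 was called higher with no filter on low counts (edgeR adjusted p 0.0142) and with a replicate block over only the groups compared (0.00609), and it missed the threshold with those groups alone and no block (0.0752). Acod1, which makes itaconate, was at 9903 ± 727 CPM in WT LPS and 10212 ± 1104 CPM in dCIS LPS.

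In the reported fit none of the lists of the inflammatory response held a called gene. For 25 tested cytokines and chemokines, 0 were called by edgeR, DESeq2 or limma. All 4 with an unadjusted edgeR p under 0.05 were lower, and 13.1% of all tested genes reached that level. The median log2 fold change of the list was -0.24, with 22 of 25 below 0, where the median over all tested genes was -0.01. The count of calls depended on the setting: edgeR called 4 of the 25 lower with no filter on low counts, 6 with a replicate block over only the groups compared and 1 with libraries 3 and 4 alone, where it called 140, 81 and 668 genes lower in all. The median was -0.15 without libraries 3 and 4 and -0.36 without libraries 1 and 2. Il6 was at 826, 401, 612 and 563 CPM in WT LPS and at 485, 354, 320 and 344 CPM in dCIS LPS. Only WT LPS library 2 fell inside the deletion range, and the difference did not pass the test (log2 -0.68, SE 0.221, edgeR adjusted p 0.180). Il6 was called lower with no filter (edgeR adjusted p 3.89e-05) and with the block over the groups compared (0.0100). Il1b spread widely within both groups, from 561 to 1363 CPM in WT LPS and from 469 to 966 CPM in dCIS LPS (log2 -0.54, SE 0.320, edgeR adjusted p 0.496). Il1b too was called lower in these 2 settings, at edgeR adjusted p of 0.00466 and 0.0111. Tnf was at 1772 ± 325 and 1664 ± 214 CPM, and the inflammasome sensor gene Nlrp3 at 632 ± 116 and 662 ± 106 CPM in WT LPS and dCIS LPS.

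The other lists of the pathway are given by their medians, and no test compared the lists with each other. The 38 tested genes of the type I interferon response had a median of -0.08, with 1 at an unadjusted edgeR p under 0.05. The 20 NF-kB factors and feedback genes had a median of 0.02 with none at that level, and the 22 genes of TLR4 and its signalling chain a median of 0.03 with 4. For the 24 tested genes of the inflammasome and the IL-1 family the median was -0.07, with 4 at an unadjusted p under 0.05. Of all tested genes, 13.1% reached that level. In these 4 lists 0 genes were called by edgeR, DESeq2 or limma. In the inflammasome list edgeR called 1 gene higher and 2 lower with no filter on low counts and again with a replicate block over the groups compared. Over all genes it called 137 higher and 140 lower with no filter, and 55 and 81 with the block. With libraries 3 and 4 alone it called 1 interferon response gene, 2 genes of TLR4 signalling and 1 of the inflammasome list lower. In that fit 4.53% of all tested genes were called lower.

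Nr1h3 was the only called gene among 17 tested genes of cholesterol efflux and lipid uptake. The median of that list was -0.00. Abca1 and Abcg1, efflux transporters that LXR receptors switch on, were at 78.3 ± 13.8 and 143 ± 24.0 CPM in WT LPS and at 106 ± 30.8 and 176 ± 33.4 CPM in dCIS LPS. Both overlapped between the groups, with log2 fold changes of 0.44 (SE 0.279, edgeR adjusted p 0.521) and 0.30 (SE 0.234, edgeR adjusted p 0.625). Abca1 was called higher with no filter on low counts (edgeR adjusted p 0.0249). Of other genes known as LXR targets, Mylip was at 0.14, Srebf1 at -0.00 and Scd2 at 0.07 on the log2 scale. Apoe, the apolipoprotein gene, had the lowest value of the list. It was at 1.64, 2.02, 1.96 and 2.02 CPM in WT LPS and at 1.54, 1.40, 0.879 and 0.327 CPM in dCIS LPS. The groups did not overlap, libraries 3 and 4 were lowest, and the difference was not called (log2 -0.88, SE 0.459, edgeR adjusted p 0.423). Nr1h2, the gene of the sister receptor LXR-beta, was at 121 ± 7.07 CPM in WT LPS and 119 ± 8.44 CPM in dCIS LPS. Ch25h, which makes the LXR ligand 25-hydroxycholesterol, was at 148 ± 10.5 CPM in WT LPS and 110 ± 14.5 CPM in dCIS LPS, with no overlap between the libraries and an edgeR adjusted p of 0.216, while limma with quality weights called it lower (adjusted p 0.00760).

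The cytosolic ribosomal protein genes leaned to the lower side together. All 28 tested had a log2 fold change below 0, with a median of -0.38. An unadjusted edgeR p under 0.05 was reached by 24 of them, and by 13.1% of all tested genes. In the reported fit edgeR called 0 of the 28, as did limma, while DESeq2 called 11 lower (0.874% of all genes). edgeR called 10 lower with no filter on low counts, 9 with a replicate block over the groups compared, 2 with the block over all libraries and 1 under RLE scaling. In these settings it called 140, 81, 43 and 23 genes lower in all. Under the other scaling of library sizes (RLE) the median was -0.36, again with 28 below 0. Rps23, with the largest difference of the list, was at 193, 217, 225 and 191 CPM in WT LPS and at 175, 153, 95.9 and 83.5 CPM in dCIS LPS. Libraries 3 and 4 were far below wild type and libraries 1 and 2 a little below it (log2 -0.70, SE 0.161, edgeR adjusted p 0.0573). With libraries 3 and 4 alone 19 of the 28 were called lower (4.53% of all genes, list median -0.57), and with libraries 1 and 2 alone 0 were (median -0.25). Both of libraries 3 and 4 lay below the lowest wild-type library for 24 of the 28 genes, and both of libraries 1 and 2 for 13. The like shares of all tested genes were not computed, so these counts cannot be read as particular to the list. The 4 and 4 libraries did not overlap for 13 of the 28, and for 6.86% of all tested genes. In untreated cells the median of the list was 0.03. For dCIS LPS over KO LPS it was -0.03, with 0 called by edgeR, so these genes were at a like level in KO LPS.

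The 19 tested genes of mitosis had a median of 0.50, with 0 called by edgeR, DESeq2 or limma. Of the 19, 2 had an unadjusted edgeR p under 0.05, where 13.1% of all tested genes did. With no filter on low counts edgeR called 3 of them higher, and with a replicate block 1. In all it called 137 genes higher with no filter, 48 with the block over all libraries and 55 with the block over the groups compared. Their summed level was 212, 249, 169 and 185 CPM in WT LPS and 288, 279, 170 and 175 CPM in dCIS LPS. Libraries 1 and 2 were above all wild-type libraries, and libraries 3 and 4 were within the wild-type range. The median was 0.89 without libraries 3 and 4 and -0.19 without libraries 1 and 2. Of 17 tested histone deacetylase genes, Hdac9 and sirtuins among them, 0 were called by edgeR, DESeq2 or limma. An unadjusted edgeR p under 0.05 was reached by 2 of them, and by 13.1% of all tested genes. With no filter on low counts edgeR called 1 of the 17 higher, and 137 genes higher in all. The class IIa members Hdac4, Hdac5 and Hdac7 were at log2 fold changes of 0.14, 0.52 and 0.44.

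In untreated cells, which share no library with the comparison after LPS, 8 genes (0.0542%) were called between the same genotypes. Ly6a, a GPI-anchored surface protein gene, was higher in dCIS, and Hpn, Etv1, Spred3, Sbno1, Alkbh6 and Gm15446 were among the lower ones. These 7 were named after their values were seen, and 5 genes were called without WT library 3, WT library 4 or dCIS library 1. All 8 had the same sign after LPS, and 3 of them, Hpn and Gm15446 among these, were called there too. The sources used here do not say how the lines were bred, so an effect of the deletion and other differences between the lines cannot be told apart in either state. Conversely, 30 of the 38 genes called after LPS had the same sign in untreated cells, 12 of the 17 higher and 18 of the 21 lower, where 49.9% of all tested genes did. Among the 38, 18 had the same sign and an unadjusted edgeR p under 0.05 in untreated cells, a level that 3.61% of all tested genes reached in either direction. Ly6a was at 16.7 ± 3.36 CPM in WT LPS and 43.3 ± 11.7 CPM in dCIS LPS, with no overlap, and just missed the threshold after LPS (log2 1.37, edgeR adjusted p 0.0528).

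Whether the genotype difference itself changed with LPS was tested as the difference of the 2 differences. edgeR called 0 of 14757 genes, with 1159 (7.85%) at an unadjusted p under 0.05, while DESeq2 called 10 and limma with quality weights 1. Mier3 came nearest among the named genes. Its log2 difference was 1.15 after LPS and 0.27 in untreated cells, and the difference of 0.88 (SE 0.153) had an edgeR adjusted p of 0.0737. Sept9, Dgkz, Fmnl1, Abca2 and Arhgap27 lay between -0.11 and -0.01 on the log2 scale in untreated cells, and their differences from the change after LPS had adjusted p of 0.357 to 0.435. mt-Tm was 0.18 in untreated cells and -1.57 after LPS (difference -1.75, edgeR adjusted p 0.341). For Nr1h3, Hpn and Gpr137b the change after LPS differed from that in untreated cells by -0.08 to 0.27 on the log2 scale, with edgeR adjusted p of 0.757 or more for the difference.

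**Figure D5:**
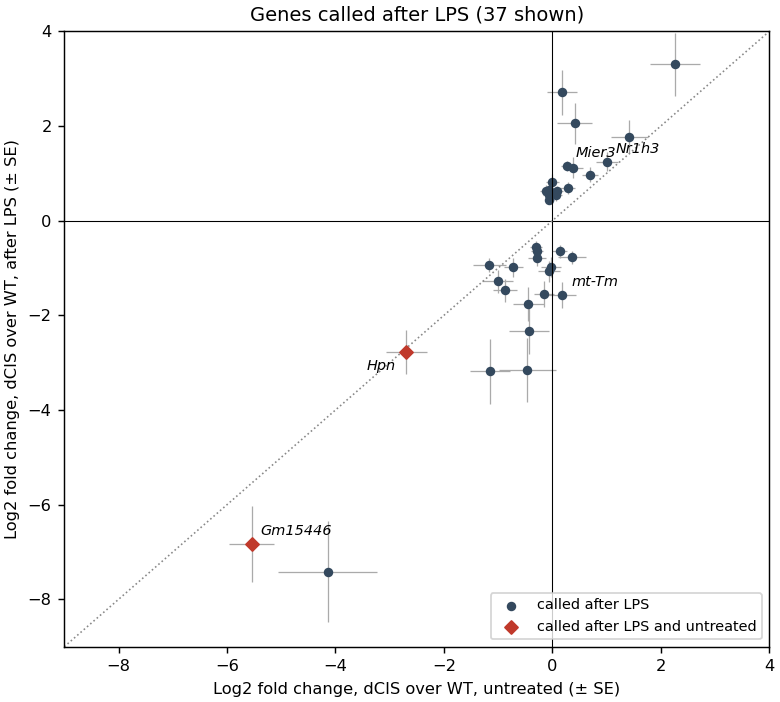
Log2 fold change of dCIS over WT in untreated cells (x axis) and after LPS (y axis) for 37 of the 38 genes called after LPS; lines are ± SE, the dotted line marks equal change, and red diamonds are called in both states. Hpn and Gm15446 lie near the dotted line, while Mier3 (0.27 untreated, 1.15 after LPS) and mt-Tm (0.18 and -1.57) lie away from it.

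The knockout libraries under the same stimulus served as a reference. Against WT LPS, KO LPS differed in 405 genes (2.74%), 341 higher and 64 lower, and dCIS LPS differed from KO LPS in 322 genes (2.18%), 123 higher and 199 lower. These comparisons share libraries with the one above, so the values are only set side by side. Mier3 averaged 66.1 ± 3.83 CPM in WT LPS, 147 ± 22.9 in dCIS LPS and 86.9 ± 7.45 in KO LPS, with dCIS LPS above KO LPS (log2 0.75, edgeR adjusted p 6.53e-05). Nr1h3 averaged 60.3 ± 8.46, 143 ± 29.7 and 52.9 ± 10.4 CPM in the same order, again with dCIS LPS above KO LPS (log2 1.43, edgeR adjusted p 9.42e-05). For Slc7a2 the means were 239 ± 48.0, 125 ± 20.7 and 204 ± 28.9 CPM (log2 of dCIS LPS over KO LPS -0.70, edgeR adjusted p 0.00874). For Plekhg2 and Abca2 the log2 differences of dCIS LPS over KO LPS were 0.04 and -0.03, with edgeR adjusted p of 0.886 and 0.930. For Gpr137b the difference was 0.03 (edgeR adjusted p 0.926), a mean of 2 libraries above every KO LPS library and 2 below every one. With libraries 3 and 4 left out, the count of genes called between dCIS LPS and KO LPS was 65, and with libraries 1 and 2 left out it was 2963. It was 1440 without dCIS LPS library 2, 121 and 154 without dCIS LPS libraries 3 and 4, and 148, 150 and 141 without KO LPS libraries 1, 3 and 4.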

How the data were processed

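Per the labels' protocols, polyadenylated RNA was taken from 200 ng of total RNA and sequenced as paired reads of 60 nucleotides. The authors deposited whole-number counts per gene for 24 libraries. STAR, edgeR and the build mm39 are named in the submitters' processing notes. Since the counting program and its strand setting were not given in the sources used here, antisense overlaps and close paralogs cannot be separated.

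The deposited counts were tested with edgeR 4.0.16 (R 4.3.3). Of 56941 gene IDs, 51948 matched a symbol. filterByExpr (minimum count 10, minimum total 15) kept 14757 genes. All 24 libraries entered 1 quasi-likelihood fit with TMM library sizes and a mean per group, and p-values were adjusted by Benjamini-Hochberg over all tested genes. SEs are the size of the log2 fold change divided by the square root of F. No 2 libraries of the groups compared agreed within sampling noise. Alternatives used DESeq2 1.42.0, limma 3.58.1 with quality weights, RLE, other filters, a replicate block and libraries left out. The fit was checked on simulated data.

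The members, gene lists and named genes were chosen with earlier results of these data known. Named are Hdac9; the largest called rises and falls, up to 15 each, with a mean of 5 CPM or more in 1 group and libraries that do not overlap; genes called in every fit that left out a library; called list members; and Il1b, Nlrp3, Tnf, Il6, Nos2, Abca1 and Abcg1. Others were named after their values were seen. A called gene that is counted in the totals is not reported here. Gene order and tRNA sequences come from RefSeq and GENCODE M21, both GRCm38, whose coordinates are not used.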

Additional observations from a re-analysis of the deposited data

Results flagged for a closer look

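Of 62 sets of 4 libraries checked among the named genes, 4 held 1 library that lay far from the other 3, where chance gives about 1 in 20. Hdac9 in WT LPS had library 2 at 16.5 CPM and the others at 10.4 to 11.4 CPM. In dCIS LPS, library 3 was at 95.3 CPM for Dgkz, with the others at 86.2 to 86.5 CPM, and at 94.4 CPM for Slc7a2, with the others at 132 to 139 CPM. Library 4 was at 1.64 CPM for Maoa, with the others at 3.37 to 3.49 CPM. In the deletion group the library apart was library 3 or 4 in each of the 3 cases, too few to read as a pattern.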

How the results depend on the processing

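The number of genes called between dCIS LPS and WT LPS, 38 (17 higher, 21 lower), depended on the settings. It was 277 (137 and 140) with no filter on low counts, 218 (89 and 129) with DESeq2, 79 (44 and 35) with limma quality weights and 13 (6 and 7) when only the compared groups were fitted. It was 6 (3 and 3) with dCIS LPS libraries 3 and 4 left out and 1019 (351 and 668) with libraries 1 and 2 left out. With a replicate block it was 91 (48 and 43) over all libraries and 136 (55 and 81) over the groups compared. Deviations of same-numbered libraries from their group means correlated at 0.015 to 0.154, and 3 of 4 dCIS LPS libraries matched their own number best. In untreated cells these correlations ran from -0.154 to 0.157, and dCIS libraries 2 and 4 matched another number best. The labels do not say that the numbers pair the libraries. Leaving out 1 library gave 18 to 199 genes, 5 to 63 higher and 10 to 136 lower; the count was 199 without dCIS LPS library 1, 19 without library 3, and 18 without WT LPS library 2 or library 3. For the difference of the differences, with 0 called, the counts were 35 with no filter, 10 with DESeq2, 210 with libraries 1 and 2 left out, 1 with a filter of 1 CPM, the replicate block over all libraries, quality weights or libraries 3 and 4 left out, and 0 to 3 leaving out 1 library (3 without dCIS library 2, 1 without WT LPS library 1 or dCIS LPS library 3). Untreated, with 8 called, they were 80 with no filter, 19 with DESeq2, 34 and 19 with the replicate block over all libraries and over the groups compared, 20 with quality weights, and 5 to 9 leaving out 1 library. For dCIS LPS against KO LPS, with 322 called, they were 850, 679, 751, 502 and 509 in the same order, 88 with only the groups compared, 65 and 2963 with libraries 3 and 4 or 1 and 2 left out, and 121 to 1440 leaving out 1 library, the extremes being without dCIS LPS libraries 3 and 2. Hdac9 turned to -0.24 without libraries 1 and 2 and ran from 0.01 to 0.42 leaving out 1 library. Nlrp3 turned to -0.14 without libraries 1 and 2, and Tnf to 0.051 with quality weights and 0.046 without libraries 3 and 4; leaving out 1 library, they ran from -0.014 to 0.17 and from -0.18 to 0.021. The difference in detected genes, -1904, was 88.2 for genes with at least 10 counts and 113 for genes with at least 1 CPM, and -2551 to -996 leaving out 1 library. The 20 called genes that met the stated naming rule kept their direction in all 360 results under the alternatives and their call in 255. The rule took genes whose 4 and 4 libraries do not overlap, so leaving out libraries could hardly reverse a direction. The kept direction is therefore no independent check. Called genes outside that rule, such as Hpn, Gm15446 and mt-Ta, are not among these 20. Among 126 such results for the named genes that were not called, 6 reversed and 7 were newly called: Il1b, Il6 and Nos2 with no filter on low counts and with the replicate block over the groups compared, and Abca1 with no filter. The cause of these shifts was not tested. Genes of a few counts per library are the ones whose detection differed in libraries 3 and 4, so absence there cannot be read at this depth.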
